A study of Mus musculus with 140 samples.

Results

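Cyclic nucleotide phosphodiesterases are the enzymes that hydrolyse the second messengers cAMP and cGMP. The transcripts of 10 of them (Pde10a, Pde1a, Pde1b, Pde1c, Pde2a, Pde4a, Pde4b, Pde4d, Pde7b and Pde8b) were followed in enhanced crosslinking and immunoprecipitation (eCLIP) data of mouse brain, in which stretches of RNA bound by a protein or recognised by an antibody are listed as clusters. Members were given by name, and a cluster was assigned to a member when its midpoint fell in the gene on the same strand (GENCODE vM21, mm10 build). They were 10 of 31172 genes that held a listed cluster, and they held 30519 of 13239113 listed clusters in the 70 immunoprecipitation (IP) libraries. A cluster was called enriched at a p of 0.001 or less against the matched input, which left 6656 of 3579282 enriched clusters in the 10 genes.

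One assay used an antibody to TDP-43, an RNA-binding protein, and the other an antibody to N6-methyladenosine (m6A), an RNA base modification. Striatum and cortex came from R6/2 mice, which carry a transgene with the first exon of human huntingtin and an expanded CAG repeat under the human promoter, and from non-transgenic (NT) mice, at 3 months of age. Both sexes were represented equally, with 4 male and 4 female libraries in each of the groups and hence 8 per group. In a further m6A experiment, C57Bl/6 males received 500 µg of a TDP-43-lowering antisense oligonucleotide (ASO), or PBS, into the ventricle at 5 weeks; cortex was taken 2 weeks after the injection, at a labelled age of 2 months, and 3 libraries were made from each arm. All R6/2 mice carry the transgene in every cell, and the tissue was not sorted into cell types. For the ASO experiment the treatment text names striatum and the sample labels name cortex, and the labels were followed.

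Phosphodiesterases differ in which messenger they cleave and in what controls them. PDE10A cleaves both messengers and is concentrated in the medium spiny neurons of the striatum, where dopamine receptors set cAMP, and its loss is a long-known feature of Huntington's disease. The PDE1 enzymes are switched on by calcium and calmodulin, PDE2A is switched on by cGMP, and the PDE4, PDE7 and PDE8 enzymes are specific for cAMP. m6A sits mostly near stop codons and in 3′UTRs, and TDP-43 prefers UG-rich RNA.

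Libraries listed between 133211 and 260739 clusters, of which between 4929 and 99049 were enriched, and read numbers were not used here. Clusters often abutted: between 19.0% and 64.9% of the enriched clusters of a library began where the previous one ended, so the number of clusters counts pieces rather than separate sites. In TDP-43 striatum, R6/2 libraries listed more clusters than NT (213284 ± 36510 against 158710 ± 14850, SD, n = 8 each, exact permutation within sex, two-sided p = 0.00163), and more of them were intronic (33.0% against 20.3%, exact permutation p = 0.00204). In TDP-43 cortex R6/2 libraries also listed more (221048 against 198419, n = 8 each, exact permutation p = 0.00816), and the intronic share was 29.0% against 24.6% (p = 0.0457 in the same exact test). In m6A cortex they listed more (170667 against 159295, exact permutation p = 0.0167) and more were enriched (68900 against 62827, exact permutation p = 0.00939), while in m6A striatum neither number passed the threshold (exact permutation p = 0.217 and 0.38). In 8 libraries, all of them R6/2 TDP-43, introns held 30% or more of what was listed. Among markers of the labelled regions, the summed enriched TDP-43 clusters of 6 cortical excitatory genes were 39.4 to 53.8 in NT cortex and 0 to 6.10 in NT striatum, each normalised within its region. Their m6A sums, normalised likewise, were closer, at 77.4 to 92.7 in NT cortex and 30.5 to 53.2 in NT striatum.

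On the mm10 build, Pde10a (ENSMUSG00000023868.17) is at chr17:8525372-8986648 on the plus strand, and Pde7b (ENSMUSG00000019990.15) at chr10:20398004-20725078 on the minus strand. The calmodulin-dependent genes are Pde1a (ENSMUSG00000059173.19, chr2:79834453-80129458, minus), Pde1b (ENSMUSG00000022489.6, chr15:103503034-103530052, plus) and Pde1c (ENSMUSG00000004347.16, chr6:56069804-56569103, minus). Pde2a (ENSMUSG00000110195.1) is at chr7:101421691-101512827 on the plus strand and holds nested genes, on whose exons 64 of its 1107 enriched clusters lay. The PDE4 genes are Pde4a (ENSMUSG00000032177.17, chr9:21165714-21213248, plus), Pde4b (ENSMUSG00000028525.16, chr4:102087543-102607259, plus) and Pde4d (ENSMUSG00000021699.17, chr13:108449948-109953461, plus, with 30 of 622 enriched clusters on exons of nested genes). Pde8b (ENSMUSG00000021684.17) is at chr13:95024454-95250336 on the minus strand.

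Most enriched clusters of Pde10a lay in its 3′UTR. In NT striatum, 96.4% of its 360 enriched m6A clusters were there, against 41.9% over all genes. Of its 318 enriched TDP-43 clusters in NT striatum, 73.9% were in the 3′UTR and 25.5% in coding sequence, against 36.0% and 48.7% over all genes, and 0 were intronic. Pde7b had 97.9% of its TDP-43 clusters in the 3′UTR in NT striatum. High 3′UTR shares of m6A clusters in NT striatum were also found in Pde8b (94.6%), Pde1c (93.8%), Pde1a (73.7%), Pde7b (71.8%) and Pde2a (67.7%). The share was 55.0% in Pde4d and 39.0% in Pde4b. Pde4a had 63.1% of its m6A clusters there in coding sequence, and all 27 enriched m6A clusters of Pde1b were in the 5′UTR. For TDP-43 in NT striatum, Pde2a had 59.9% of its clusters in coding sequence. These shares are over pieces pooled from 8 libraries and carry no test.

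A site was defined as a stretch of bases that lay in enriched clusters in 4 or more of the 16 libraries compared. The m6A sites of Pde10a in striatum that were present in all 16 libraries were 3 in number, and all lay in the 3′UTR. The sequences below are windows of 30 bases at the middle of such sites, taken from the mm10 sequence on the strand of the gene and written 5′ to 3′, and capitals mark matches to DRACH, the sequence pattern around most m6A. They are from frequent m6A sites of the genes whose counts fell in R6/2 striatum, together with a site of Pde4d in coding sequence for contrast. Only windows that held a match were printed, so a match in each of them follows from this choice. The Pde10a windows are from the sites at chr17:8983518-8983850 and chr17:8985833-8986094, whose middles lie 2031 and 4311 bases after the last coding base. The Pde7b window is from the site at chr10:20398201-20398468, the Pde2a windows from those at chr7:101511704-101512035 and chr7:101512037-101512228, and the Pde4d window from the one at chr13:109950999-109951289.
Pde10a 3′UTR site 2031: ctggggcagttttgcagagGAACCtgccag
Pde10a 3′UTR site 4311: gGAACAcagTAACAaaagaggtccgccgcc
Pde7b 3′UTR site: aagcagctacGGACTGACAtacatcttcat
Pde2a proximal 3′UTR site: cccacacAGACTttgccatttgtacacaag
Pde2a distal 3′UTR site: ataAAACAagtcaccagctggaagtaccct
Pde4d coding site: cTAACCttggaggaAGACTgcgagtcagac

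A DRACH match was found in the window of 31 of 51 m6A sites of the 10 genes in striatum (60.8%), against 55.3% of all 40938 sites, and in 28 of 43 in cortex (65.1%), against 55.6%. The repeat TGTGT, searched like DRACH on the strand of the gene, here in the TDP-43 windows, was rare: it was in 4 of 69 sites in striatum (5.80%, against 4.29% of all 18551) and 5 of 68 in cortex (7.35%, against 4.41% of all 37142). None of the 3 TDP-43 sites of Pde10a present in the most striatal libraries held it. The windows that did, shown for the genes whose TDP-43 clusters fell and chosen after their values were seen, were from Pde10a at chr17:8984996-8985073 (7 NT and 3 R6/2 libraries) and Pde7b at chr10:20398785-20398852 (6 NT and 0 R6/2 libraries). The Pde4a window is from its most frequent cortical TDP-43 site, at chr9:21212960-21213001 (4 NT and 1 R6/2 libraries). Capitals mark TGTGT.
Pde10a 3′UTR TDP-43 site: gtatattcctaccctgcatttgcttTGTGT
Pde7b 3′UTR TDP-43 site: cttggctgtaaaatccagTGTGTacgcatt
Pde4a TDP-43 site: cggtttgtgggaagtTGTGTcataactgag
A match is a description of these letters and not evidence of binding.

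TDP-43 and m6A sites met on the same bases in part of the genes. In striatum, 8 of 25 TDP-43 sites of Pde10a shared at least 1 base with an m6A site (32.0%), and 3 of its 5 m6A sites shared a base with a TDP-43 site. Over the 10 genes these shares were 26.1% of 69 TDP-43 sites and 17.6% of 51 m6A sites, and over all genes 23.5% and 8.77%. In cortex they were 25.0% of 68 and 30.2% of 43 for the 10 genes, against 21.8% and 16.5% for all genes.

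The first comparison asked whether TDP-43 binding differed between R6/2 and NT striatum. Pde10a carried far fewer enriched TDP-43 clusters in R6/2. Its number, divided by the size factor of each library, was 25.0 at the lowest, 33.9 at the median and 55.7 at the highest in NT, and 2.02, 7.69 and 16.3 in R6/2. All 8 R6/2 libraries lay below all 8 NT libraries. The share of all genes whose groups do not overlap is not given, here or below, so such separation is a description. The means were 36.9 ± 9.01 and 7.41 ± 4.79 (SD, n = 8 each), a log2 change of −2.47 (SE 0.293, 95% interval −3.09 to −1.85, limma adjusted p = 5.48e-05). Without the R6/2 libraries whose introns held 30% or more of listed clusters, the change was −1.76 (adjusted p = 0.00253), in males alone it was −2.21 with an adjusted p of 0.0629, and over all listed clusters, enriched or not, it was −0.49 (adjusted p = 0.00631). The libraries left out for introns were all R6/2 females and R6/2 male 4. R6/2 males 1, 2 and 3 thus remained against NT of both sexes, here and wherever this is done for TDP-43 striatum below. Bulk tissue was measured, and input libraries were not analysed. Here and in all that follows, fewer cells of a type, less RNA per cell and less binding or m6A per transcript cannot be told apart.

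Pde7b, a cAMP-specific enzyme also abundant in striatum, was the other member called. It had 4.28, 5.06 and 6.17 enriched TDP-43 clusters at the lowest, median and highest NT library and 2.02, 2.99 and 3.71 in R6/2, without overlap between the groups. The change was −0.72 (SE 0.18, adjusted p = 0.0134), from means of 5.15 ± 0.702 to 2.95 ± 0.551. It was not called without the libraries rich in introns (−0.72, adjusted p = 0.201), and over all listed clusters it was 0.08 (adjusted p = 0.833).

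Over all genes, 13.7% of 2333 tested were called in TDP-43 striatum and 7.72% were called lower, and 2 of the 5 members tested were called lower. Testing required 2 enriched clusters or more in 50% or more of the libraries. Pde1b went from 13.3 ± 4.07 to 9.19 ± 2.50 (−0.49, adjusted p = 0.106), Pde2a from 14.8 to 11.3 (−0.36, adjusted p = 0.224) and Pde8b from 1.59 to 0.767 (−0.89, adjusted p = 0.289), and none passed the threshold. Without R6/2 male 1, Pde1b changed by −0.60 (adjusted p = 0.034). When only clusters with a p of 1e-10 or less were counted, Pde1b (−1.69, adjusted p = 0.0221) and Pde2a (−1.67, adjusted p = 0.0237) were the members called, Pde7b was at −0.86 (adjusted p = 0.155) and Pde10a was below the minimum. The other 5 members were below the minimum: Pde4a had 0 enriched clusters in all 16 libraries, Pde1a 0 in all NT libraries, and Pde1c, Pde4b and Pde4d had means between 0.651 and 0.922 in both groups.

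In cortex the same comparison again gave Pde10a the largest change among the members. Its TDP-43 clusters were 2.22, 7.04 and 9.07 at the lowest, median and highest NT library and 0, 0.459 and 2.06 in R6/2, where 4 of 8 libraries had 0. The groups did not overlap, and the change was −2.74 (SE 0.415, 95% interval −3.61 to −1.87, adjusted p = 6e-04), from 6.34 ± 2.20 to 0.702 ± 0.825. At least 2 clusters were present in 10 libraries, which included all 8 NT libraries, so the gene passed the minimum through the group where it was high. In females alone the adjusted p was 0.0934. Counting all listed clusters, enriched or not, the change was −0.15 (adjusted p = 0.605), from 147 ± 38.0 to 144 ± 37.2 listed clusters before normalisation.

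**Figure D1:**
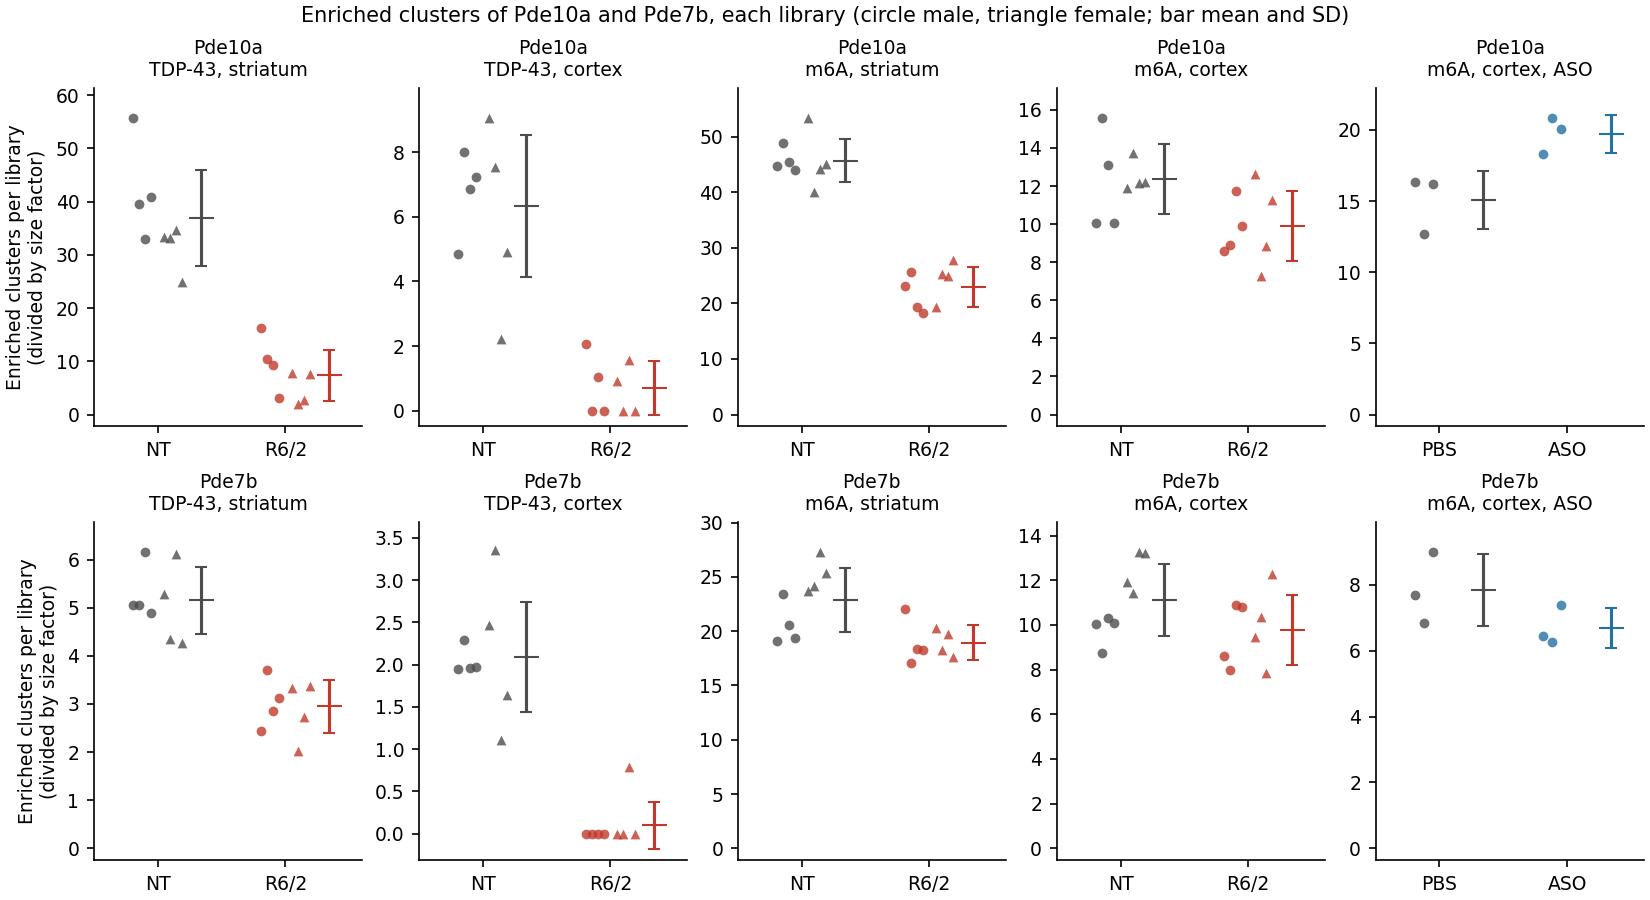
Enriched clusters of Pde10a (top row) and Pde7b (bottom row) in each library, divided by the library's size factor, for 5 comparisons; circles are males, triangles females, and bars show the mean and SD of 8 libraries (3 for ASO and PBS). Each panel has its own scale, and the Pde10a TDP-43 values of all R6/2 libraries lie below those of all NT libraries in both regions (2.02 to 16.3 against 25.0 to 55.7 in striatum).

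Pde7b was below the minimum in TDP-43 cortex and was not tested. It nevertheless had enriched clusters in all 8 NT libraries (1.11 to 3.35, median 1.96) and in 1 of 8 R6/2 libraries (0.791, the other 7 at 0). Both TDP-43 sites of the gene in cortex followed this pattern. The site at chr10:20398372-20398472 was enriched in 8 NT libraries and 1 R6/2 library and the one at chr10:20398487-20398546 in 7 and 0. Both passed the minimum of 4 libraries through NT, so these numbers carry no test.

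Pde1b, the calmodulin-dependent form of striatal neurons, was called lower in cortex: 5.88 ± 1.32 in NT and 3.40 ± 0.915 in R6/2 (−0.72, SE 0.196, adjusted p = 0.0334), with overlapping groups (3.94 to 7.77 and 2.18 to 4.71). The call was lost when any of 9 libraries was left out, with adjusted p between 0.0517 and 0.0723; these were NT males 1 and 3, NT females 1 to 4, R6/2 male 4 and R6/2 females 2 and 4. Over all genes 7.12% of 3904 were called and 5.66% called lower, and 2 of 8 members tested were called, both lower. The 6 others ranged from −0.76 for Pde4a (adjusted p = 0.503) to 0.12 for Pde4b (adjusted p = 0.88), with Pde4d at −0.65 (adjusted p = 0.133), Pde8b at −0.53 (0.436), Pde2a at −0.35 (0.213) and Pde1a at −0.27 (0.334). Pde1c had means of 0.103 and 0.259 and was not tested.

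**Figure D2:**
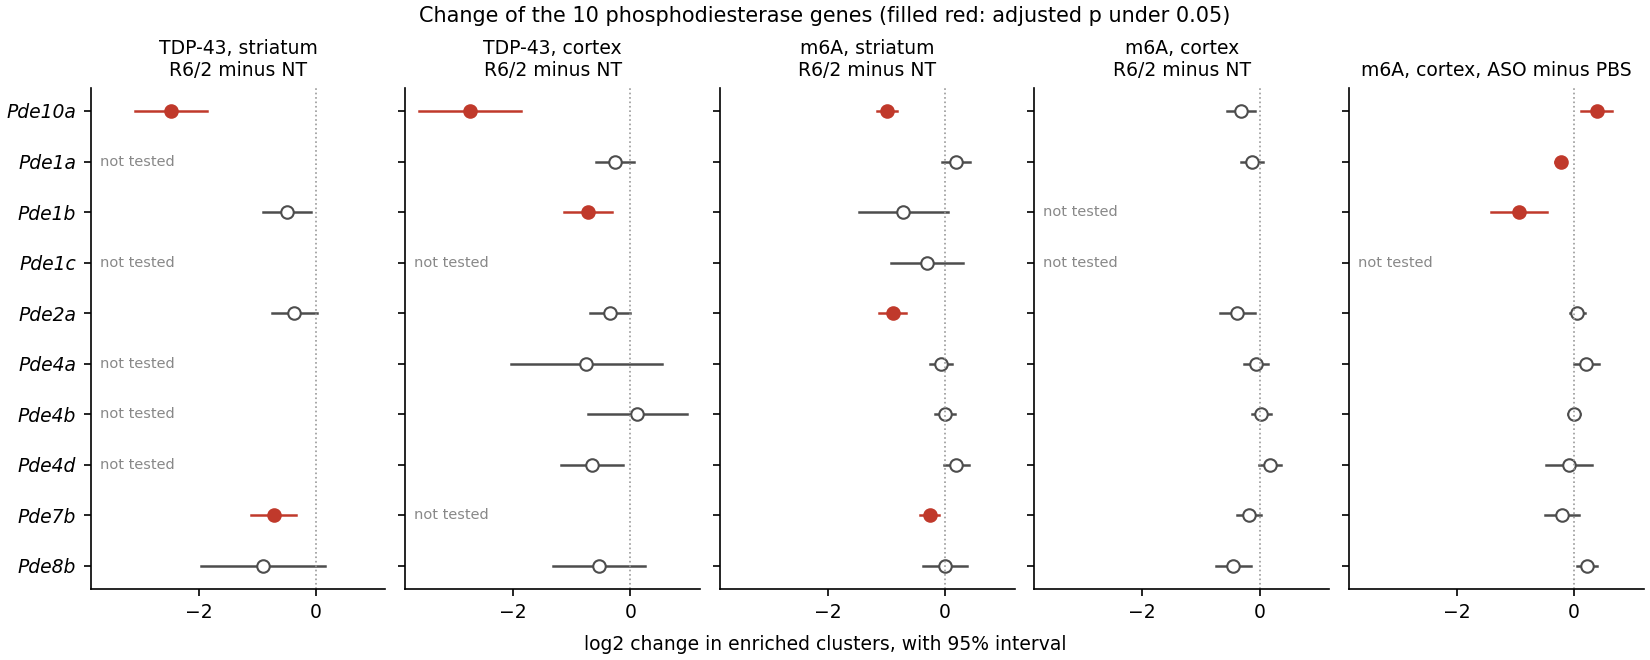
Log2 change of the number of enriched clusters of each of the 10 genes in 5 comparisons, on 1 common horizontal axis, with 95% intervals from limma; filled red points have an adjusted p under 0.05 and genes below the minimum are marked as not tested. Pde10a lies farthest to the left in the first 3 panels (−2.47, −2.74 and −0.99) and at 0.38 after the ASO.

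The deposited fold of IP over input, averaged over the listed exonic clusters of a gene and centred on the library median, gave a second measure. For Pde10a in TDP-43 striatum it fell from 0.997 ± 0.297 to 0.422 ± 0.154 on the log2 scale (−0.58, SE 0.127, adjusted p = 0.00887), with NT libraries between 0.506 and 1.38 and R6/2 libraries between 0.255 and 0.777. With enriched exonic clusters alone the sign turned (0.45, adjusted p = 0.145), and without the libraries rich in introns it was −0.71 (adjusted p = 0.216). Over all genes 6.56% of 9661 were called, and Pde10a was the member called of 10 tested. In TDP-43 cortex, where 1.97% of 10646 genes were called, Pde7b was the member called (0.508 ± 0.238 to −0.174 ± 0.229, −0.68, SE 0.126, adjusted p = 0.00517, and −0.53, adjusted p = 0.0844, without the libraries rich in introns), and Pde10a changed by −0.32 (adjusted p = 0.197).

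At the level of sites, Pde10a had 25 TDP-43 sites in striatum, 16 in the 3′UTR and 9 in coding sequence. Each of the 25 was enriched in fewer R6/2 than NT libraries, and 7 were enriched in NT libraries and no R6/2 library. The coding site at chr17:8929090-8929169 was enriched in 7 NT and 0 R6/2 libraries, and the 3′UTR site at chr17:8981892-8981939 in 8 and 1; both were named for this contrast and passed the minimum of 4 libraries through NT. The most persistent sites, at chr17:8983484-8983592 and chr17:8985442-8985529 in the 3′UTR, were enriched in 8 NT and 6 R6/2 libraries. In cortex all 6 TDP-43 sites of Pde10a were in fewer R6/2 than NT libraries. These counts follow from the fall of the gene's total and are not a separate test of position.

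After adjustment over all sites, none was called in any of the 4 comparisons: 0% of 18551 in TDP-43 striatum, 37142 in TDP-43 cortex, 40938 in m6A striatum and 37845 in m6A cortex. The smallest p that the exact permutation of 4900 labelings can give is 0.000408. Over this many sites it passes the adjusted threshold only where many sites reach it together. A change at a few sites, such as those of 1 gene, could therefore not be called. At an unadjusted p under 0.05 there were 15 of 69 member sites in TDP-43 striatum (1105 of all), 9 of 68 in TDP-43 cortex (1577 of all), 2 of 51 in m6A striatum (1217 of all) and 1 of 43 in m6A cortex (1174 of all). Of the 15, 12 were in Pde10a. Sites present in few R6/2 libraries passed the minimum through NT, so these unadjusted counts are a description.

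**Figure D3:**
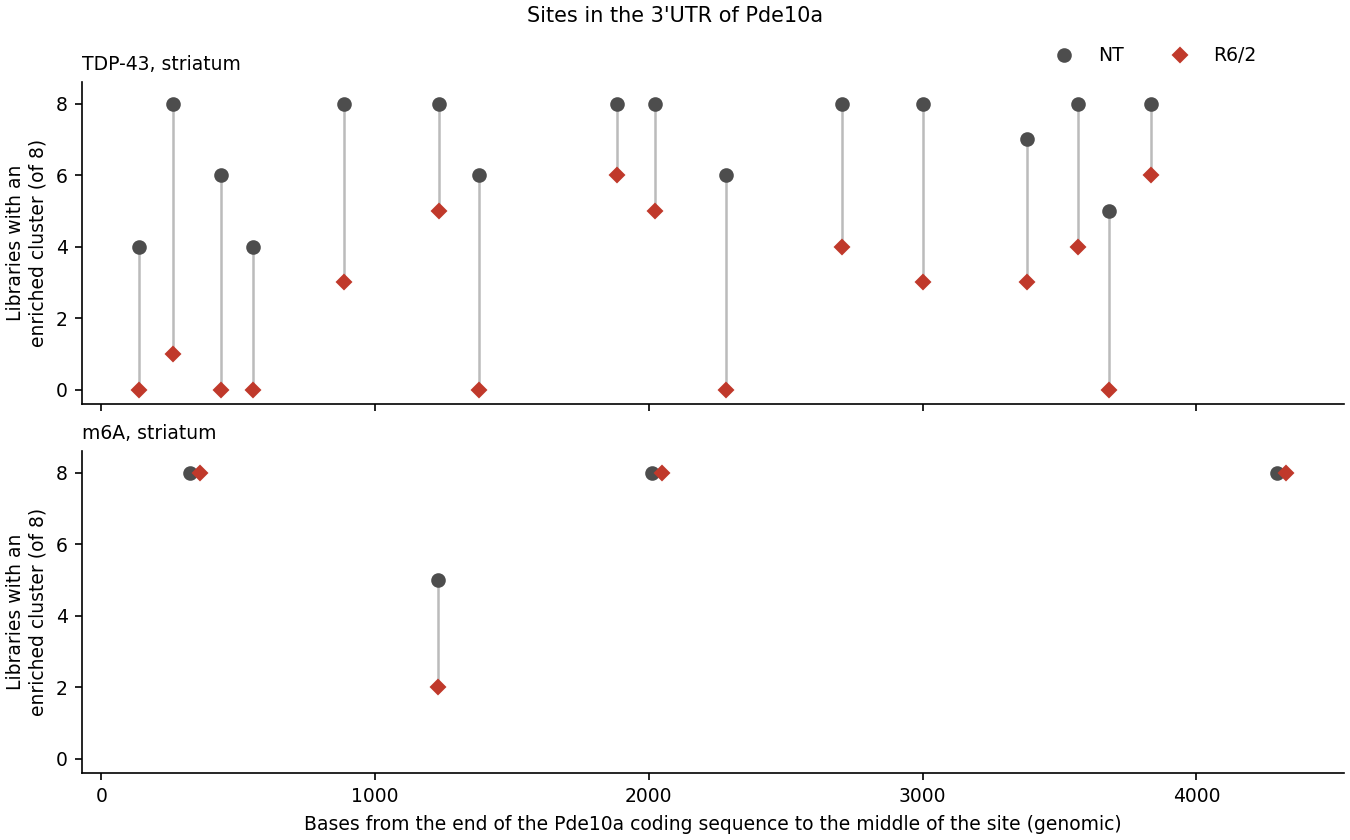
TDP-43 and m6A sites in the 3′UTR of Pde10a in striatum, by distance in genomic bases from the last coding base, with the number of the 8 NT (circles) and 8 R6/2 (diamonds) libraries in which each was enriched; equal numbers are drawn side by side. The 3 long m6A sites stand at 8 of 8 libraries in both genotypes, whereas the TDP-43 sites reach at most 6 of 8 R6/2 libraries.

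The m6A comparison in striatum asked the same of the RNA mark. Pde10a had 40.0, 44.9 and 53.4 enriched m6A clusters at the lowest, median and highest NT library and 18.3, 24.0 and 27.7 in R6/2, so the groups were apart. Its mean went from 45.7 ± 3.92 to 23.0 ± 3.53 (−0.99, SE 0.0852, 95% interval −1.17 to −0.81, adjusted p = 5.63e-08). Pde2a, which couples cGMP to cAMP breakdown, fell in the same comparison. It had 18.1, 20.5 and 27.3 clusters in NT and 6.85, 11.9 and 13.9 in R6/2, again with no overlap (21.1 ± 3.24 to 11.3 ± 2.35, −0.89, SE 0.11, adjusted p = 9.85e-06).

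Pde7b was lower by less and with overlap, 19.1, 23.6 and 27.3 in NT and 17.1, 18.3 and 22.1 in R6/2 (−0.26, SE 0.0776, adjusted p = 0.036). That call was lost when any of 10 libraries was left out (adjusted p 0.0513 to 0.0791; NT male 2, NT females 1 to 4, R6/2 males 2 and 3 and R6/2 females 2 to 4). In this comparison all 10 members were tested and 3 were called, all lower, against 9.62% called and 5.73% called lower among 9734 genes. The median change was −0.16 for the members and 0.02 for all genes.

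The other 7 members did not pass the threshold in striatal m6A. Pde4b, a cAMP-specific form abundant in brain, had 22.4 ± 3.09 clusters in NT and 22.4 ± 1.99 in R6/2 (0.003, 95% interval −0.17 to 0.18, adjusted p = 0.988). Pde4a changed by −0.07 (−0.25 to 0.12, adjusted p = 0.713), Pde4d by 0.20 (adjusted p = 0.264), Pde8b by −0.002 (adjusted p = 0.997) and Pde1a by 0.19 (adjusted p = 0.347). Pde1b and Pde1c had few clusters and wide intervals (−0.71, −1.46 to 0.05, and −0.31, −0.92 to 0.30), and over all listed clusters Pde1b was called lower (−0.60, adjusted p = 1.63e-06).

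What fell for Pde10a m6A was mainly the number of pieces. Its 3 main 3′UTR sites, 2 of which are printed above, were enriched in 8 of 8 NT and 8 of 8 R6/2 libraries. The bases covered by its enriched clusters went from 1392 ± 120 to 1226 ± 77.2 per library, a log2 change of −0.22 (adjusted p = 0.00669). Counted as stretches of abutting clusters, the gene had 5.75 ± 1.58 in NT and 4.50 ± 1.31 in R6/2 (−0.37, adjusted p = 0.28). The median width of an enriched cluster of Pde10a was 23.0 bases in NT and 41.5 bases in R6/2. For Pde2a the covered bases changed by −0.41 (adjusted p = 0.000288) and the stretches by −0.51 (adjusted p = 0.316). In TDP-43 striatum, by contrast, all 3 measures of Pde10a were called: stretches went from 26.4 ± 4.60 to 7.88 ± 6.03 (−1.98, adjusted p = 0.000293) and covered bases from 2007 ± 359 to 596 ± 481 (−2.11, adjusted p = 0.00114). The difference between the assays itself was not tested.

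**Figure D4:**
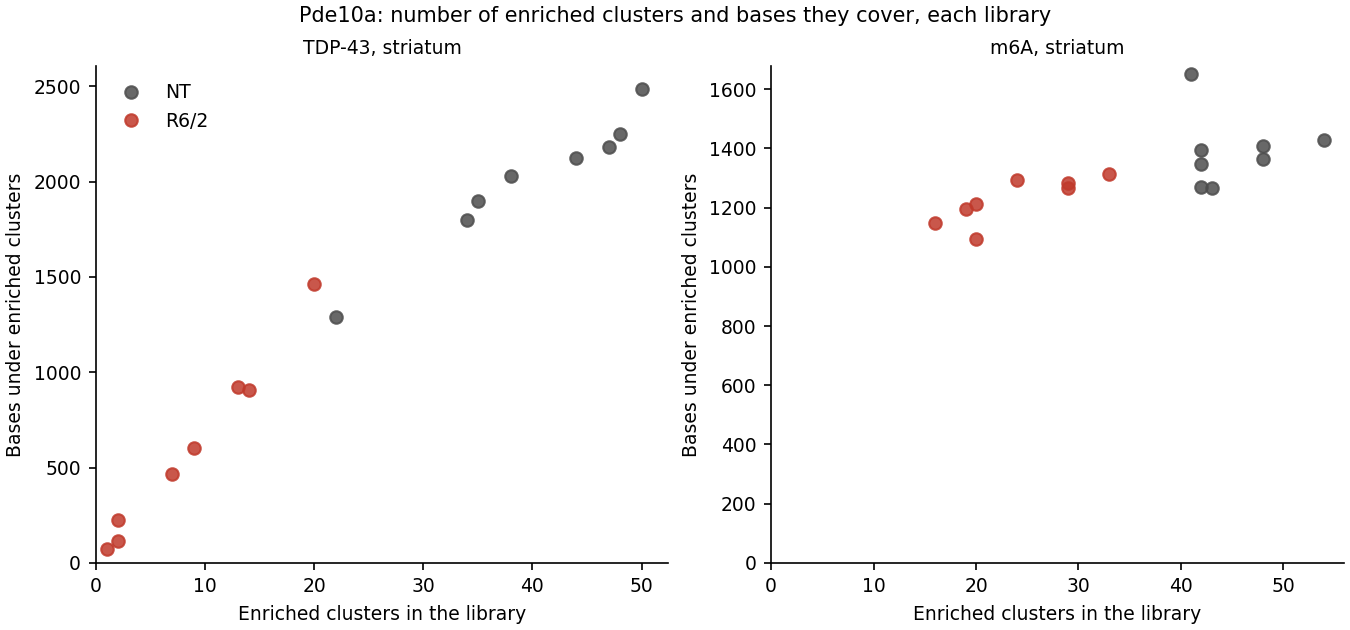
Number of enriched clusters of Pde10a (horizontal axis, before normalisation) against the bases they cover (vertical axis), 1 point per striatal library, for TDP-43 and m6A in NT and R6/2. R6/2 points lie to the left in both, and their covered bases average 596 against 2007 in TDP-43 and 1226 against 1392 in m6A.

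The fold over input of m6A clusters did not pass the threshold for any member: 0.254% of 12984 genes were called in striatum and 0.0544% of 12869 in cortex, with 0 members of 10 in each. For Pde10a in striatum the change was 0.008 (95% interval −0.12 to 0.14, adjusted p = 0.975).

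In m6A cortex no member of the 8 tested was called, against 6.32% of 9071 genes called and 3.88% called lower. Pde10a had 12.4 ± 1.84 clusters in NT and 9.89 ± 1.83 in R6/2 (−0.31, adjusted p = 0.11), Pde2a 10.03 and 7.60 (−0.38, adjusted p = 0.12) and Pde8b 4.203 ± 1.33 and 2.89 ± 0.628 (−0.45, adjusted p = 0.0696). With clusters of p of 1e-10 or less alone, Pde10a (−0.48, adjusted p = 0.0316) and Pde2a (−0.49, adjusted p = 0.0172) passed. The other 5 lay between −0.18 for Pde7b and 0.17 for Pde4d, with adjusted p from 0.275 to 0.865. Pde1b and Pde1c were below the minimum, and Pde1c had 0 clusters in all NT libraries.

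The R6/2 effect was compared between regions in a joint fit of each assay. For m6A, 0.258% of 9312 genes differed, and 1 of 8 members, Pde10a, did: its change was lower in striatum than in cortex by 0.67 on the log2 scale (−0.67, SE 0.144, adjusted p = 0.0235). The call was lost over covered bases (adjusted p = 0.777), over stretches (0.876), over all listed clusters (0.718), and without R6/2 cortex male 3 (0.0524) or female 4 (0.0519). For TDP-43, 0.0658% of 3040 genes differed and no member did. The difference for Pde10a was 0.04 (SE 0.494, 95% interval −0.97 to 1.04, adjusted p = 0.989), and for Pde7b 1.16 (SE 0.319, adjusted p = 0.107), which over covered bases became 2.14 (adjusted p = 0.00858). Between females and males, 0% of the genes tested differed in any assay and region.

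In NT mice the regions themselves differed for these genes. Pde10a had 52.5 ± 13.5 enriched TDP-43 clusters in striatum and 5.32 ± 1.91 in cortex (3.24, SE 0.215, adjusted p = 4.01e-09), with striatal libraries between 35.2 and 81.6 and cortical ones between 1.75 and 7.72. Pde1b (19.0 against 4.89, 1.82, adjusted p = 5.43e-07) and Pde7b (7.33 against 1.75, 1.83, adjusted p = 2.78e-06) were also higher in striatum. Pde4d was lower in striatum (1.15 against 4.64, −1.85, adjusted p = 0.000247), and Pde1a had 0 clusters in all 8 striatal libraries and 7.13 ± 1.41 in cortex (adjusted p = 1.66e-10), through which alone it passed the minimum. Of 8 members tested 5 were called, and 51.5% of 3277 genes were, with a median change of −0.64 over all genes, against which the members' changes are to be read.

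m6A gave the same direction for 4 of these 5 members. Pde10a had 42.2 ± 3.58 clusters in striatum and 12.6 ± 1.90 in cortex (1.72, SE 0.088, adjusted p = 1.4e-11), Pde7b 21.1 and 11.3 (0.87, adjusted p = 1.98e-08), Pde1a 11.7 and 23.8 (−1.01, adjusted p = 5.88e-06) and Pde4d 11.7 and 14.7 (−0.31, adjusted p = 0.0176). The other called gene was Pde2a (19.5 and 10.2, 0.92, adjusted p = 4.71e-06), which in TDP-43 differed by 0.13 (adjusted p = 0.472). The call rate over 9272 genes was 18.8%, and Pde1b was below the minimum in m6A, with 3.12 in striatum and 0.130 in cortex.

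**Figure D5:**
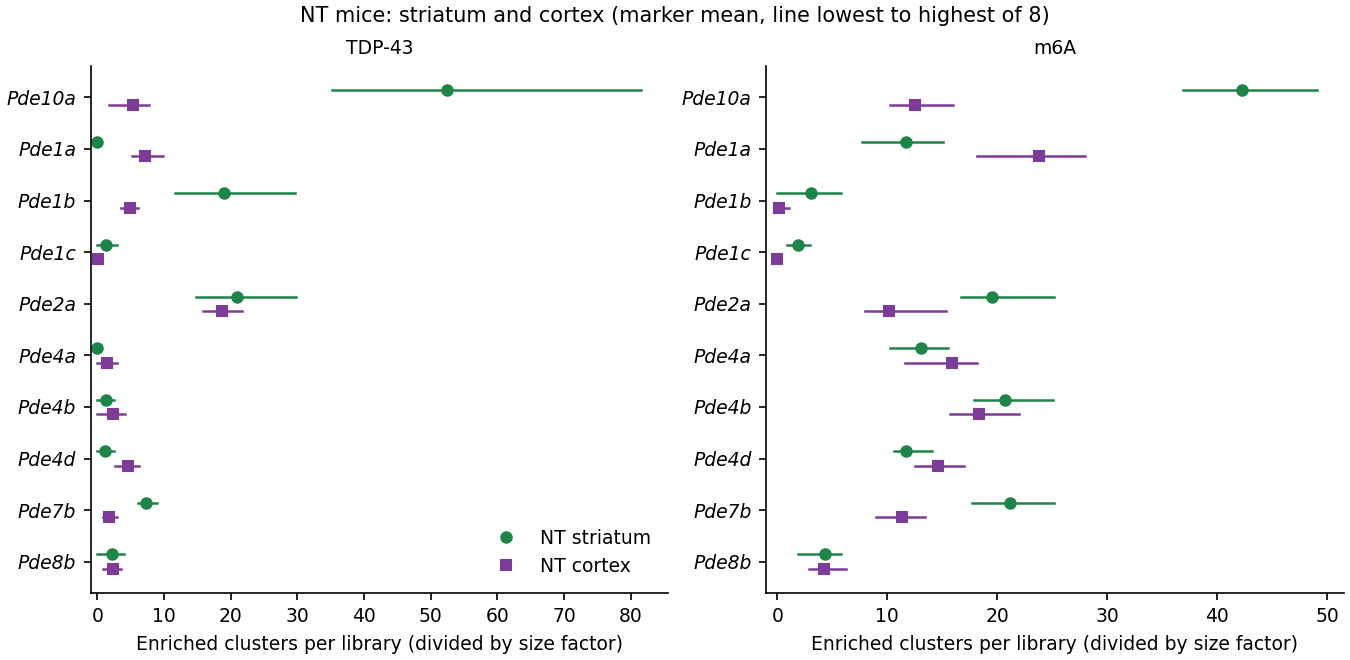
Normalised enriched clusters of the 10 genes in NT striatum and NT cortex, for TDP-43 and m6A, with markers at the mean and lines from the lowest to the highest of 8 libraries. Pde10a (52.5 and 5.32 for TDP-43), Pde7b and Pde1b lie higher in striatum, and Pde1a lies at 0 in striatum for TDP-43.

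The tested markers of medium spiny neurons, the principal cells of the striatum, were lower in R6/2 in both assays and regions. This included m6A cortex, where Pde10a was not called. Of 9 marker genes, 5 of 7 tested were called lower in TDP-43 striatum, with a median change of −0.87 and a summed level of 39.9 to 76.0 in NT and 21.1 to 40.3 in R6/2 (Gpr6 and Tac1 were at 0 in both). Of the 5, Drd1 and Drd2, at means of 0.488 and 0.701 in R6/2, passed the minimum mainly through NT. In m6A striatum 8 of 9 were called lower (median −0.60, sums 134 to 174 and 94.0 to 110), and in m6A cortex 6 of 7 (median −0.88, sums 50.6 to 61.8 and 25.8 to 41.9). In TDP-43 cortex both markers tested were called lower (sums 4.86 to 9.996 and 0.791 to 4.31, with Drd1, Drd2, Gpr6 and Tac1 at 0 in NT). Over all genes, 7.72% were called lower in TDP-43 striatum, 5.66% in TDP-43 cortex, 5.73% in m6A striatum and 3.88% in m6A cortex. Among the astrocyte, oligodendrocyte, microglia, vascular, interneuron and cortical excitatory lists in the R6/2 comparisons, 1 astrocyte gene was called lower in m6A striatum and 1 in m6A cortex, and none in TDP-43. For TDP-43, 0 microglia and 0 vascular genes were tested in either region, and 1 interneuron gene in striatum and 0 in cortex. Astrocyte sums in m6A striatum were 77.0 to 87.5 in NT and 68.1 to 73.7 in R6/2, while vascular sums were 9.16 to 15.9 and 11.6 to 22.4. The part of these markers and of the intronic share in the Pde10a results was not tested.

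The ASO experiment asked whether lowering TDP-43 changed m6A on these transcripts. The m6A clusters of Tardbp itself, the gene that encodes TDP-43, were 18.8 ± 3.22 with PBS and 8.46 ± 0.996 with the ASO (−1.10, SE 0.138, n = 3 each, limma adjusted p = 0.00386). Pde10a had 16.3, 12.7 and 16.2 enriched clusters in the PBS libraries and 18.3, 20.8 and 20.1 in the ASO libraries, without overlap (0.38, SE 0.108, adjusted p = 0.0424). The call was lost when any of the 6 libraries was left out (adjusted p 0.0506 to 0.113). Pde1a went from 38.4 ± 0.662 to 32.8 ± 1.42 (−0.23, SE 0.0371, adjusted p = 0.00867) and Pde1b from 2.52 ± 0.532 to 1.06 ± 0.0165 (−0.94, SE 0.193, adjusted p = 0.0155), with no overlap for either. Pde1b passed the minimum through the PBS libraries alone.

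Of 9 members tested 3 were called, 1 higher and 2 lower, and 30.2% of 10149 genes were called. The others were Pde8b (0.22, adjusted p = 0.0626), Pde4a (0.21, adjusted p = 0.116), Pde7b (−0.21, adjusted p = 0.231), Pde2a (0.06), Pde4d (−0.09) and Pde4b (−0.004). Pde8b and Pde4a were not called, though their PBS and ASO libraries did not overlap either. Full separation of 3 libraries from 3 gives an exact permutation p of 0.1 at best, so it is a description. Libraries of a treatment listed almost the same clusters (251961 to 251972 with PBS and 233567 to 233590 with the ASO). Pde10a had 25 listed clusters in every PBS library and 23 in every ASO library, so the spread behind these p-values covers the scoring of shared clusters and not their calling. Over covered bases no member was called, with Pde10a at 1093 ± 173 with PBS and 1131 ± 107 with the ASO. Among marker lists, 0 of 8 medium spiny neuron genes tested were called after the ASO, while 2 cortical excitatory genes, 1 astrocyte gene and 1 microglia gene rose and 1 astrocyte gene fell. The fold over input was called for 0.738% of 15850 genes and 0 of 10 members (Pde10a 0.33, adjusted p = 0.0888).

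The wider cAMP and cGMP pathway was followed as a list of 64 other genes. In TDP-43 striatum 24 were tested, 1 rose and 4 fell, with a median of −0.11 against −0.04 over all genes and 13.7% of all genes called. Prkacb, a catalytic subunit of protein kinase A, rose (11.8 to 16.3, 0.44, adjusted p = 0.0392). Adcy5, the main adenylyl cyclase of striatal neurons, fell (25.5 to 16.6, −0.60, adjusted p = 0.0222), as did Gng7, a G protein subunit that works with it (−0.56, adjusted p = 0.00888), the cAMP-regulated exchange factor Rapgef4 (−0.47, adjusted p = 0.0252) and the anchoring protein Akap11 (−0.44, adjusted p = 0.0499).

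In m6A striatum 43 pathway genes were tested, 0 rose and 5 fell (median −0.05 against 0.02 over all genes, of which 9.62% were called). Adcy5 went from 44.1 to 28.4 (−0.63, adjusted p = 8.52e-07), Gng7 from 7.21 to 3.64 (−0.98, adjusted p = 0.00483), Ppp1r1b, the protein kinase A target DARPP-32 and one of the medium spiny markers, from 8.54 to 5.15 (−0.69, adjusted p = 0.0162) and Calm3 from 6.45 to 4.18 (−0.61, adjusted p = 0.01). In TDP-43 cortex 32 were tested, Gnai2 rose (0.90, adjusted p = 0.0175) and Nos1 (−1.65, adjusted p = 0.0189) and Ppp1r1b (−1.22, adjusted p = 0.0418) fell, where 7.12% of all genes were called. In m6A cortex 46 were tested, Gnai3 rose (0.94, adjusted p = 0.00476) and Ppp1r1b fell (−1.41, adjusted p = 0.00882), where 6.32% of all genes were called. After the ASO, 44 were tested, 4 rose and 9 fell (median −0.05 against −0.002), which is no more than the 30.2% called over all genes. Adcy3 went from 4.73 to 9.87 (0.99, adjusted p = 0.00136) and Prkar1a, a regulatory subunit of protein kinase A, from 9.44 to 4.24 (−1.09, adjusted p = 0.0085). Gucy2g was at 2.84 with PBS and 1.06 with the ASO (−1.10, adjusted p = 0.00397) and passed the minimum through the PBS libraries, as cortical Nos1 and Ppp1r1b, at means under 2 in R6/2, did mainly through NT. Of 14 other phosphodiesterases, 0 were tested for TDP-43, and 3 in m6A striatum and 5 in m6A cortex were tested without a call. After the ASO 1 of 3 rose, Pde3b (0.39, adjusted p = 0.011), and 2 fell.

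Over the 64 R6/2 and NT libraries, centred within each assay and region, the genes whose log2 enriched clusters tracked Pde10a most closely of 1858 were Syt2 (r = 0.875), Pdzd2 (0.846), Rhobtb2 (0.818), Gpr158 (0.808) and Jcad (0.775). Pde2a (0.379, rank 328) and Pde8b (0.367, rank 349) were the members that could be compared. These libraries share genotype and depth, and the values are a description.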

How the data were processed

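The deposited lists give, per cluster, the position, strand, a −log10 p and a log2 fold of IP over input reads. CLIPper clusters on mm10 were scored by the authors against matched input reads, and the deposited −log10 p (0 to 400) and log2 fold are their values. The methods state 1 common sequencing target for IP and input libraries; the reads behind each library and cluster were not analysed here, and the CLIPper version is not given in the sources used here. Enriched clusters had a −log10 p of at least 3. Per gene, their number was scaled by size factors (median of ratios), 0.5 was added, and log2 values were fitted with limma 3.58.1 in R 4.3.3 (lmFit, eBayes with trend, two-sided, sex as a covariate except in the all-male ASO experiment), leaving out genes that did not reach 2 enriched clusters in 50% of libraries. P-values were adjusted by Benjamini-Hochberg over every gene fitted, with 0.05 as the threshold of a call. SE is the moderated standard error. The mean log2 fold used genes with 3 or more listed exonic clusters in at least 75% of the libraries of each group. Sites, library yields and motifs were computed in Python 3.11.15, sites by exact permutation within sex. The methods describe male and female R6/2 and NT animals in numbers that match the libraries, which were taken as separate animals; the labels name no animal. Members, gene lists and tests were chosen with earlier results of these data known. The text names all 10 members, up to the 4 largest called pathway changes per direction, Tardbp in the ASO experiment, the 5 genes most like Pde10a, and of each member's 3 most frequent sites some of those with a motif. Further TDP-43 sites, among them the Pde10a site with TGTGT, were named after their values were seen. The fits were tested on simulated data. Input libraries were not analysed here.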

Additional observations from a re-analysis of the deposited data

Results flagged for a closer look

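Of 76 groups of 8 libraries examined, 9 held a library far from the other 7, where chance gives about 1 in 20 for continuous values. That rate does not hold for the 4 groups with 1 library above 0 and 7 at 0, which any single cluster sets apart. In TDP-43 striatum, R6/2 male 1 was the highest for Pde1b (14.7 normalised clusters, group median 8.55), R6/2 male 2 for Pde4d (3.71, median 0.422) and R6/2 male 3 for Pde1a (0.713, the other 7 at 0). In TDP-43 cortex, NT female 1 was the one library with a Pde1c cluster in its group (0.824) and R6/2 female 3 the one with a Pde7b cluster (0.791). In m6A striatum, NT male 3 was the highest for Pde4d (15.2, median 12.4). In m6A cortex, NT female 4 was the one NT library with a Pde1b cluster (1.02), NT male 4 was the highest for Pde2a in NT (15.1, median 9.85) and R6/2 female 1 the lowest for Pde2a in R6/2 (4.21, median 7.70).

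The m6A effect of R6/2 on Pde10a differed between regions, with the change in striatum minus that in cortex at −0.67 (limma adjusted p = 0.0235); its losses under other measures are given in the report.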

How the results depend on the processing

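The lists hold no reads, so the number of clusters depends on how the caller cut them, and limits below are of that kind. For 18 results, 196 alternatives other than leaving out a library were run, and 145 kept the count of members called within 1.5 times, 29 of them with other members called; of 3472 member changes recomputed, 3064 kept direction and side of the threshold. For the rest the cause was not tested. All 14 alternatives for sites called 0, where a change at a few sites could not be called either. For ASO minus PBS, all listed clusters and the intronic covariate could not be fitted, since libraries of a treatment list the same clusters.

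Equal counts hid exchanges. In TDP-43 striatum, p of 1e-10 or less exchanged Pde10a (below the minimum there) and Pde7b for Pde1b and Pde2a, and on fold over input all clusters exchanged Pde10a for Pde4d. In m6A striatum, listed clusters exchanged Pde7b for Pde1b. In TDP-43 cortex, a minimum of 1 cluster or leaving out the libraries of at least 30% introns exchanged Pde1b for Pde7b. Between NT regions in m6A, p of 1e-10 or less exchanged Pde4d for Pde4a, males alone for Pde1c and females alone for Pde1b.

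Members called in TDP-43 striatum (2) were 4 over all listed clusters (Pde10a, Pde1a, Pde4b and Pde4d), 0 in males alone, and 1 with the study's thresholds, covered bases, a minimum of 1 cluster in any library, the intronic covariate, females alone or without the libraries of at least 30% introns. In TDP-43 cortex (2) they were 0 with the study's thresholds, p of 1e-10 or less and females alone, and 1 over listed clusters (Pde4a, −0.39, adjusted p = 0.0223), covered bases, total-number scaling, quantile scaling, 4 or more clusters, the intronic covariate, the replicate block, males alone and stretches. In m6A striatum (3) they were 0 with the study's thresholds and stretches. In m6A cortex (0) they were 1 over listed clusters and with quantile scaling and 2 with p of 1e-10 or less. For the ASO (3) they were 0 with the study's thresholds and covered bases and 1 with p of 1e-10 or less (Pde10a), the replicate block (Pde1a) and stretches (Pde2a, 1.22, adjusted p = 0.0192). Between NT regions, TDP-43 (5) gave 2 with p of 1e-10 or less, and m6A (5) gave 8 over listed clusters and 1 with the study's thresholds and stretches. The TDP-43 difference between regions (0) gave 1 over covered bases, and the m6A one (1) gave 0 over listed clusters, covered bases and stretches, with the study's thresholds and p of 1e-10 or less, and in either sex alone. On fold over input, TDP-43 striatum (1) gave 0 with enriched exonic clusters alone, the median, no centring or without the libraries of at least 30% introns and 2 with the replicate block, and TDP-43 cortex (1) gave 0 with all clusters, enriched exonic clusters, the median or without those libraries.

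Leaving out 1 library gave 2 to 3 members called in TDP-43 striatum, 1 to 2 in TDP-43 cortex, 2 to 3 in m6A striatum, 0 to 1 in m6A cortex, 1 to 2 for the ASO, 4 to 6 and 5 to 6 between NT regions in TDP-43 and m6A, 0 to 0 and 0 to 1 for the differences between regions, 1 to 2 and 1 to 1 on fold over input in TDP-43 striatum and cortex and 0 to 0 on the other folds.

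Signs that turned were Pde7b TDP-43 striatum over listed clusters (0.076), Pde4d fold TDP-43 striatum over all clusters (−0.47, adjusted p = 0.0206, from 0.05), Pde10a fold TDP-43 striatum with enriched exonic clusters (0.45), Pde7b fold TDP-43 cortex over all clusters (0.042), Pde7b m6A striatum in stretches (0.027), Pde1b ASO over covered bases (0.11) and Pde8b NT TDP-43 with quantile scaling (0.81, adjusted p = 0.00791, from −0.18).

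Same-numbered libraries deviated together in part: in TDP-43 striatum 4 of 8 pairs correlated above 0.1 (−0.191 to 0.46) and 4 of 8 best with their own number, in TDP-43 cortex 1 and 0 (−0.457 to 0.114), and in m6A cortex 0 and 4 (at most 0.0882). Not every pair did, so numbers were not taken as pairs. With the replicate block, 3 members were called in TDP-43 striatum, 2 in m6A striatum, 0 in m6A cortex, and 5 and 6 between NT regions. The replicate block added Pde1b in TDP-43 striatum (−0.49, adjusted p = 0.0388, and −0.40, adjusted p = 0.038, on fold over input) and Pde4a between NT regions in m6A (adjusted p = 0.0342), and it lost Pde1b in TDP-43 cortex (0.0804), Pde7b in m6A striatum (0.0788) and, for the ASO, Pde10a (0.0789) and Pde1b (0.0578).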
